A study of Sus scrofa with 11 samples.

Results

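Nuclear genes of the respiratory chain were examined in the longissimus lumborum, a back muscle, of 11 female pigs. The 51 genes described here were taken by name: symbols that begin with NDUF, UQCR or ATP5, or with COX and a digit from 4 to 8, together with SDHA, SDHB, SDHC, SDHD, CYC1 and CYCS, with a normalised level (CPM, counts scaled to library size) of at least 1 in at least 4 pigs. They are 51 of 25322 rows in the gene table and 51 of the 82 symbols of that kind in the table of gene names. Each of the 51 had at least 1 CPM in all 11 pigs, and no other row of the table had the same symbol or the same counts. The other 31 symbols, among them COX7A1, COX6A2, COX4I2, NDUFS3, NDUFS8, NDUFV2 and CYC1, were not analysed here. They had no row in the gene table under the gene IDs of the table of gene names. The CPM limit itself removed no gene, so the levels of these genes are unknown here.

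The pigs were 23 weeks old and had been sorted by muscle histology. The 7 fibre1 pigs had over 17% type I fibres, which are slow and oxidative, and under 70% type IIB fibres, which are fast and glycolytic. In the 4 fibre2B pigs type I fibres were under 8% and type IIB fibres over 70%. No treatment is labelled, the breed is not given in the sources used here, and the fibre percentages are given as limits and not per pig. The comparison asks whether transcript levels of these genes differ between the groups. The groups differ in the shares of both type I and type IIB fibres, which cannot be told apart here. Whole muscle was sequenced, so fewer fibres or cells of a type and less RNA per cell cannot be told apart.

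The respiratory chain sits in the inner mitochondrial membrane. Complexes I and II pass electrons from NADH and succinate to coenzyme Q, complex III passes them on to cytochrome c, and complex IV gives them to oxygen. The proton gradient that complexes I, III and IV build drives ATP synthesis by complex V. Slow fibres are rich in mitochondria and rely on this pathway, while fast glycolytic fibres draw more on glycolysis. Each complex other than complex II joins nuclear-encoded subunits with subunits encoded by mitochondrial DNA. Core subunits carry out the chemistry and have bacterial counterparts, accessory subunits surround them, and assembly factors help to build the complex without staying in it.

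The libraries held 14832736 (fibre2B pig 14) to 36374829 counts (fibre1 pig 12), and no called member had fewer than 295 counts in a pig. In fibre1 pigs 5 and 6 the 10 most abundant nuclear genes took 45.2% and 44.1% of the counts, against 29.5% to 36.8% in the other pigs, and these pigs had the lowest scaling factors, 0.718 and 0.779. The skeletal muscle markers with a tested row, ACTA1, DES, MYOD1 and TNNC2, summed to between 107892 and 228682 CPM in fibre1 and between 94115.5 and 117653 CPM in fibre2B. Slow-fibre markers with a tested row, 5 of 9 listed, all had positive log2 fold changes (median 0.83). Of these, 0 passed edgeR's test at an adjusted p of 0.05, although 3 had an unadjusted p under 0.05. The slow-fibre sum was 25648 CPM in fibre1 pig 1, against 7324 to 9756 CPM in the other fibre1 pigs. In fibre2B the slow-fibre sums ran from 2341 to 8863 CPM, with pig 10 highest. Only fibre1 pigs 1 and 17 lay above all fibre2B pigs. The medians of the slow-fibre sums were 7847 CPM in fibre1 and 5348 CPM in fibre2B. Fast-fibre markers, 5 tested of 8 listed, also all had positive log2 fold changes (median 0.45). Their sums were 69872 ± 23040 CPM in fibre1, against 50673 ± 3661 CPM in fibre2B. With edgeR 0 passed, and 2 had an unadjusted p under 0.05 (MYBPC2 and ATP2A1). In fibre1 pigs 5 and 6 the fast-fibre sums were 103487 and 100169 CPM, against 47812 to 68922 CPM in the other fibre1 pigs. The skeletal muscle sums were 228682 and 209513 CPM in pigs 5 and 6, against 107892 to 134661 CPM in the other fibre1 pigs. TNNC2 is in both of these sums, with means of 47266 CPM in fibre1 and 36330 CPM in fibre2B. Of 5 tested fibroblast markers 5 had negative log2 fold changes and 2 passed the test (DCN and LUM), with sums of 474 to 979 CPM in fibre1 and 745 to 1440 CPM in fibre2B. The blood marker HBB was lower in fibre1 too, and the sum of 2 blood markers was 137 to 467 CPM in fibre1 and 423 to 954 CPM in fibre2B. Leaving out 1 pig ended the DCN call for fibre2B pig 14 (edgeR adjusted p = 0.070), the LUM call for fibre1 pig 2 and fibre2B pigs 11 and 14 (0.051 to 0.085), and the HBB call for fibre1 pigs 1, 2 and 17 and each fibre2B pig (0.052 to 0.153). Of 3 adipocyte markers 2 had positive log2 fold changes (list median 0.14) and RBP4 was called lower in fibre1, and of 6 smooth muscle and pericyte markers 4 had positive values (list median 0.24) and KCNJ8 was called lower. Leaving out any 1 of fibre1 pigs 1, 2, 5 and 6 and fibre2B pigs 11 and 14 ended the RBP4 call (edgeR adjusted p from 0.061 to 0.152), and any 1 of those pigs or fibre2B pig 10 ended the KCNJ8 call (edgeR adjusted p from 0.053 to 0.148). Over all genes tested with edgeR 9.01% passed and 28.9% had an unadjusted p under 0.05. In all, 0 of 4 endothelial and 0 of 4 immune markers passed, 2 and 1 of them with an unadjusted p under 0.05 in edgeR. The part of these differences in the results below was not tested.

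Most of the 51 genes differed little between the groups. NDUFA10, an accessory subunit of complex I, was higher in fibre1. COX7A2 and COX7A2L, a pair of related genes of complex IV, were lower in fibre1. These 3 of 51 members (5.88%) passed edgeR's quasi-likelihood test at a Benjamini-Hochberg adjusted p of 0.05, against 9.01% of the 11329 genes tested. The 1 member called higher stands beside 4.38% of all genes called higher, and the 2 called lower beside 4.63% of all genes called lower. At an unadjusted p under 0.05 there were 8 members (15.7%) and 28.9% of all genes.

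The log2 fold changes of the members, fibre1 minus fibre2B, ran from -0.51 to 0.77. They lay within 0.5 of 0 for 47 of 51 members (92.2%), against 69.6% of all genes tested and 73.5% of the 7606 tested genes in the members' range of mean CPM. The median size of the log2 fold change was 0.15 over the members, 0.32 over all genes tested and 0.30 over the genes in the same range of CPM. The median biological coefficient of variation was 0.220 for the members and 0.222 for the genes in that range. Positive values numbered 29 (56.9%, against 50.7% of all genes) and negative values 22, with a median of 0.06 against 0.01 over all genes. CPM was scaled by TMM factors, which limit the weight of a few very abundant genes. With library totals in their place the median of all genes moved to -0.19 and that of the members to -0.14, with 14 of 51 members positive, so the sign of a small change depended on the scaling.

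**Figure D1:**
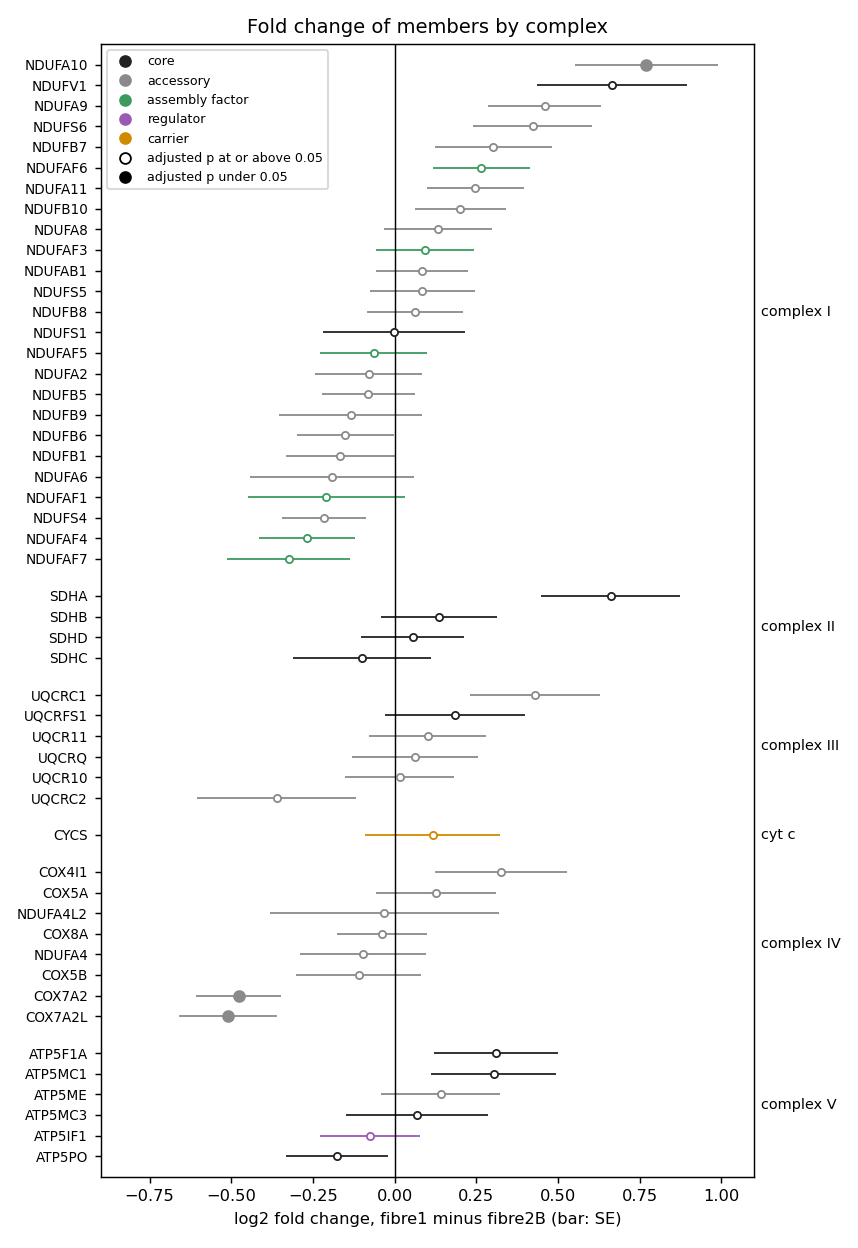
Log2 fold change, fibre1 minus fibre2B (x axis), with its SE (bar) for 50 of the 51 members, arranged by complex; colours give the class, and filled points passed an adjusted p of 0.05 in edgeR. Filled points are NDUFA10 at 0.77, COX7A2 at -0.48 and COX7A2L at -0.51, and with TMM factors the others lie on both sides of 0 in each of complexes I to V.

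Complex I, which oxidises NADH, had 26 members, of which 14 had positive and 12 negative log2 fold changes (median 0.07). NDUFA10 (ENSSSCG00000016349), an accessory subunit of the membrane arm, had a lowest value of 116, a median of 172 and a highest of 255 CPM in fibre1, against 113, 118, 77.4 and 104 CPM in fibre2B pigs 10, 11, 14 and 16, the order kept below. The values of 6 of 7 fibre1 pigs lay above every fibre2B pig, and those of fibre1 pigs 7 and 12 lay close to the highest fibre2B values. The means with their SD were 176 ± 49.8 CPM (7 fibre1 pigs) and 103 ± 18.0 CPM (4 fibre2B pigs). The log2 fold change was 0.77 ± 0.22 (SE; edgeR adjusted p = 0.044). The call held without fibre1 pig 7 or 12 and was lost when any 1 of the other 9 pigs was left out (edgeR adjusted p from 0.052 to 0.146), while the log2 fold change stayed between 0.65 and 0.86.

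No core subunit of complex I passed with edgeR, although NDUFV1 had an unadjusted p under 0.05. NDUFV1, the flavoprotein that takes electrons from NADH, had a lowest value of 147, a median of 213 and a highest of 336 CPM in fibre1, against 158, 146, 94.6 and 158 CPM in fibre2B. Its upper 5 fibre1 values lay above all fibre2B values and the other 2 among them. The means were 221 ± 65.0 CPM in fibre1, against 139 ± 30.3 CPM in fibre2B, for a log2 fold change of 0.66 ± 0.23 that missed the threshold (edgeR adjusted p = 0.080; DESeq2 adjusted p = 0.034, a test that called 5 of 51 members and 16.7% of all genes). NDUFS1, the large iron-sulphur subunit, had 126 ± 32.2 CPM in fibre1, against 127 ± 39.0 CPM in fibre2B (log2 fold change -0.003 ± 0.22, edgeR adjusted p = 0.994).

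Among the 17 accessory subunits of complex I, 10 had positive and 7 negative log2 fold changes, and NDUFA10 was the 1 that passed. NDUFA9, at the junction of the membrane and peripheral arms, ran from 95.2 to 164 CPM in fibre1 (median 114) and from 71.4 to 105 CPM in fibre2B (log2 fold change 0.46 ± 0.17, edgeR adjusted p = 0.101). NDUFS6, a zinc-binding subunit near the NADH site, had 107 ± 23.6 CPM in fibre1, against 79.8 ± 15.5 CPM in fibre2B (0.42 ± 0.18, edgeR adjusted p = 0.147). For both, 5 of 7 fibre1 pigs lay above all fibre2B pigs. At the other end NDUFS4, a subunit mutated in a human mitochondrial encephalopathy, had 174 ± 20.5 CPM in fibre1, against 202 ± 19.1 CPM in fibre2B, with 5 of 7 fibre1 pigs below all fibre2B pigs (-0.22 ± 0.13, edgeR adjusted p = 0.280). The membrane-arm subunits NDUFB7, NDUFA11 and NDUFB10 had log2 fold changes of 0.30, 0.25 and 0.20, and NDUFB1 and NDUFB6 of -0.17 and -0.15.

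Of the 6 assembly factors of complex I that were measured, 0 passed the test with edgeR, DESeq2 or limma-voom, and 0 had an unadjusted p under 0.05 in edgeR; 2 had positive and 4 negative log2 fold changes. NDUFAF4 had 7.29 ± 1.18 CPM in fibre1, against 8.78 ± 0.547 CPM in fibre2B, with 5 of 7 fibre1 pigs below all fibre2B pigs (log2 fold change -0.27 ± 0.15, edgeR adjusted p = 0.246). NDUFAF7, a methyltransferase needed to build complex I, had 3.29 ± 0.533 CPM in fibre1, against 4.13 ± 0.907 CPM in fibre2B (-0.32 ± 0.19, edgeR adjusted p = 0.273). NDUFAF6 had 9.19 to 14.2 CPM in fibre1 and 9.02 to 10.5 CPM in fibre2B (0.27 ± 0.15, edgeR adjusted p = 0.255). The sum of the 6 was 66.8 ± 7.81 CPM in fibre1, against 66.4 ± 0.868 CPM in fibre2B.

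Complex II, succinate dehydrogenase, belongs to both the citrate cycle and the respiratory chain, and all 4 of its subunits were measured. SDHA, the flavoprotein that oxidises succinate, had a lowest value of 174, a median of 227 and a highest of 338 CPM in fibre1, against 183, 149, 105 and 174 CPM in fibre2B. The upper 5 fibre1 values lay above all fibre2B values, and those of fibre1 pigs 7 and 12 lay among the fibre2B values. The means were 241 ± 61.5 CPM in fibre1, against 153 ± 35.0 CPM in fibre2B, for a log2 fold change of 0.66 ± 0.21 (edgeR adjusted p = 0.066; DESeq2 adjusted p = 0.021). Its iron-sulphur partner SDHB had 317 ± 56.9 CPM in fibre1, against 288 ± 65.5 CPM in fibre2B (0.14 ± 0.18, edgeR adjusted p = 0.641). The membrane anchors SDHC and SDHD had log2 fold changes of -0.10 ± 0.21 and 0.06 ± 0.16 (edgeR adjusted p = 0.787 and 0.843). With 1 pig left out, the SDHA and NDUFV1 values crossed the edgeR threshold only without fibre1 pig 7 or 12 (adjusted p from 0.044 to 0.049).

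Complex III carries electrons from coenzyme Q to cytochrome c. Of its 6 members 5 had positive and 1 a negative log2 fold change (median 0.08), and 0 passed the test with edgeR or DESeq2, although 1 had an unadjusted p under 0.05 in edgeR. UQCRC1 and UQCRC2 encode the paired large matrix subunits, which are relatives of the mitochondrial processing peptidase, and neither passed the test. UQCRC1 had a lowest value of 317, a median of 470 and a highest of 616 CPM in fibre1, against 440, 267, 292 and 370 CPM in fibre2B, and 4 of 7 fibre1 pigs lay above all fibre2B pigs. Its log2 fold change was 0.43 ± 0.20 (edgeR adjusted p = 0.170). UQCRC2 had a lowest value of 51.1, a median of 85.0 and a highest of 139 CPM in fibre1, against 152, 73.3, 109 and 112 CPM in fibre2B. Its groups overlapped widely, and the log2 fold change was -0.36 ± 0.24 (edgeR adjusted p = 0.342). The Rieske iron-sulphur protein UQCRFS1 had 342 ± 72.4 CPM in fibre1, against 301 ± 97.7 CPM in fibre2B (0.18 ± 0.21, edgeR adjusted p = 0.597). Cytochrome c itself, CYCS, had 402 ± 92.9 CPM in fibre1, against 371 ± 95.2 CPM in fibre2B (0.12 ± 0.21, edgeR adjusted p = 0.738).

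Complex IV is cytochrome c oxidase. Of its 8 members 2 had positive and 6 negative log2 fold changes, with a median of -0.07, and the 2 called members were both negative. COX7A2 (ENSSSCG00000004480), the form of subunit 7A found in most tissues, had a lowest value of 43.7, a median of 55.6 and a highest of 64.8 CPM in fibre1, against 69.5, 66.8, 86.2 and 83.7 CPM in fibre2B. Every fibre1 pig lay below every fibre2B pig. It was the only member of the 51 whose groups did not overlap, against 7.55% of all genes tested, and 4.15% with fibre1 below. The means were 54.9 ± 6.84 CPM in fibre1, against 76.5 ± 9.81 CPM in fibre2B, for a log2 fold change of -0.48 ± 0.13 (edgeR adjusted p = 0.040). Its muscle paralog COX7A1 was not analysed here.

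COX7A2L (ENSSSCG00000008466) is related to subunit 7A and takes part in joining complexes III and IV into supercomplexes. It had a lowest value of 18.7, a median of 24.7 and a highest of 29.2 CPM in fibre1, against 36.3, 26.7, 37.6 and 34.8 CPM in fibre2B. Only the highest fibre1 pig, pig 17, overlapped with fibre2B, where pig 11 was low. The means were 23.7 ± 3.86 CPM in fibre1, against 33.8 ± 4.87 CPM in fibre2B, for a log2 fold change of -0.51 ± 0.15 (edgeR adjusted p = 0.0496). Both calls held without fibre1 pig 12 or 17 or fibre2B pig 11 and were lost when any 1 of the other 8 pigs was left out, with adjusted p from 0.053 to 0.141 for COX7A2 and from 0.058 to 0.152 for COX7A2L. The log2 fold changes stayed between -0.53 and -0.41 for COX7A2 and between -0.60 and -0.45 for COX7A2L. These genes have related sequences, and how reads that fit several copies were assigned is not given in the sources used here.

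**Figure D2:**
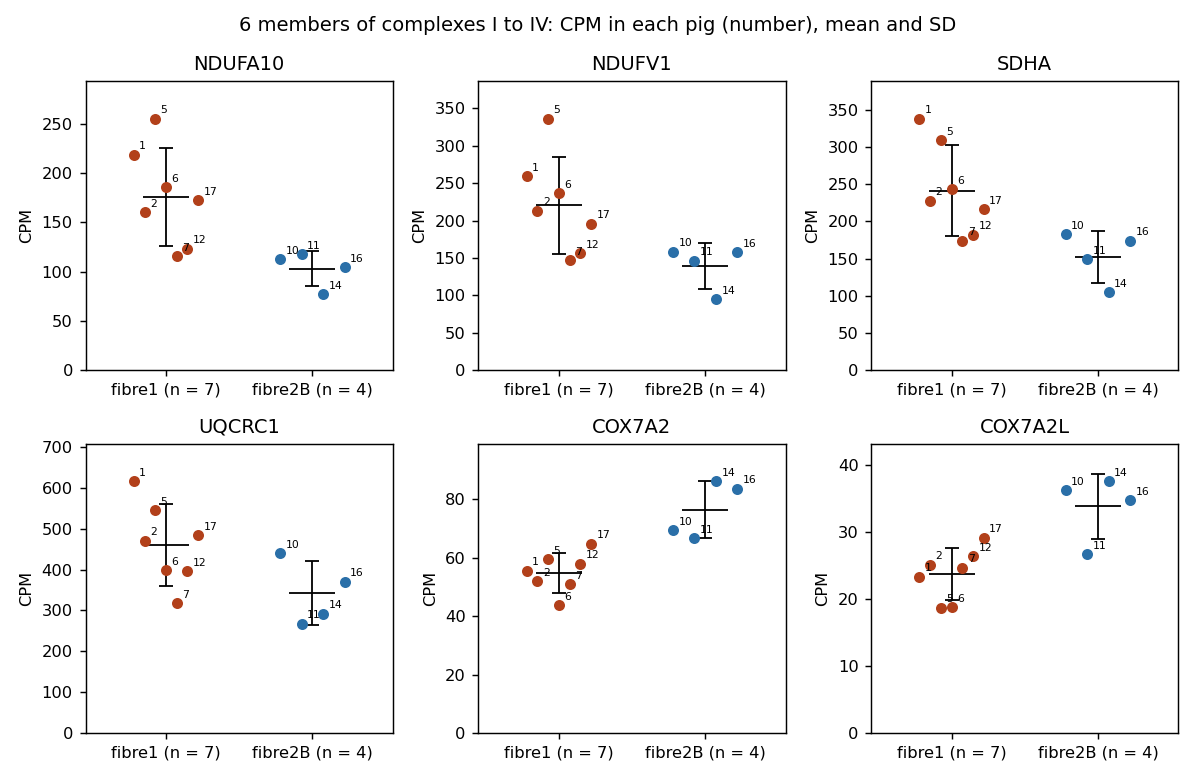
CPM with TMM factors (y axis, from 0) of 6 members in each pig (points with pig numbers; fibre1 left, fibre2B right), with the mean and SD of each group. All 7 fibre1 pigs lie below the 4 fibre2B pigs for COX7A2, and 6 of 7 lie above them for NDUFA10, while the groups overlap for NDUFV1, SDHA and UQCRC1.

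The other complex IV members did not pass. COX4I1, the common form of the regulatory subunit 4, had a lowest value of 720, a median of 908 and a highest of 1410 CPM in fibre1, against 1015, 726, 614 and 783 CPM in fibre2B. Only 2 fibre1 pigs lay above all fibre2B pigs, and the log2 fold change was 0.32 ± 0.20 (edgeR adjusted p = 0.305). COX5A and COX5B, which bind the core from the matrix side, had log2 fold changes of 0.13 and -0.11, and COX8A of -0.04. NDUFA4, first described in complex I and now placed in complex IV, had 732 ± 166 CPM in fibre1, against 782 ± 148 CPM in fibre2B (-0.10 ± 0.19, edgeR adjusted p = 0.772). Its hypoxia-induced paralog NDUFA4L2 was low, with 2.64 ± 1.20 CPM in fibre1, against 2.69 ± 1.08 CPM in fibre2B (-0.03 ± 0.35, edgeR adjusted p = 0.963).

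Complex V is the ATP synthase. Of its 6 members 4 had positive and 2 negative log2 fold changes (median 0.10), and 0 passed the test with edgeR or DESeq2, with 0 at an unadjusted p under 0.05 in edgeR. ATP5F1A, the alpha subunit of the catalytic head, had a lowest value of 921, a median of 1058 and a highest of 1358 CPM in fibre1, against 1052, 749, 676 and 1125 CPM in fibre2B. The upper 3 fibre1 values lay above all fibre2B values, and the log2 fold change was 0.31 ± 0.19 (edgeR adjusted p = 0.293). ATP5PO, part of the stalk that holds the head, had 432 ± 61.3 CPM in fibre1, against 488 ± 83.8 CPM in fibre2B (-0.18 ± 0.16, edgeR adjusted p = 0.480). ATP5MC1 and ATP5MC3, which encode the proton-carrying c subunit, had log2 fold changes of 0.30 ± 0.19 and 0.07 ± 0.22 (edgeR adjusted p = 0.313 and 0.861). The membrane subunit gene ATP5ME was at 0.14, and ATP5IF1, an inhibitor of the enzyme's reverse reaction, at -0.08.

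Across classes, the 12 core subunits analysed had 9 positive and 3 negative log2 fold changes with a median of 0.16. The 31 accessory subunits analysed had 17 positive and 14 negative, with a median of 0.06. Core subunits without a row, such as NDUFS3, NDUFS8, NDUFV2, CYC1 and ATP5F1C, are not counted. The 4 members of complex II were all core and the 8 of complex IV, with both lower calls, all accessory. The contrast of classes is therefore mixed with that of complexes. No core subunit passed with edgeR; 2 had an unadjusted p under 0.05, NDUFV1 and SDHA, which are the 2 that DESeq2 called. The summed CPM of core subunits was 4130 ± 701 in fibre1 and 3604 ± 830 in fibre2B, and that of accessory subunits 7448 ± 1227 in fibre1 and 7033 ± 1156 in fibre2B. The ratio of the core to the accessory sum, which does not depend on the scaling, was 0.555 ± 0.029 in fibre1 and 0.509 ± 0.0512 in fibre2B, with 1 of 7 fibre1 pigs above all fibre2B pigs.

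Summed by complex over the subunits analysed, no group difference exceeded the spread between pigs. The sums are not of whole complexes. Complexes I, III, IV and V lacked subunits that had no row, among them NDUFS3, CYC1, COX7A1 and ATP5F1C. The subunits of complex I summed to 3416 ± 563 CPM in fibre1, against 3157 ± 442 CPM in fibre2B, and those of complex II to 899 ± 157 CPM in fibre1, against 787 ± 171 CPM in fibre2B. Complex III summed to 1852 ± 369 CPM in fibre1, against 1677 ± 342 CPM in fibre2B, complex IV to 2765 ± 452 CPM in fibre1, against 2658 ± 512 CPM in fibre2B, and complex V to 2646 ± 446 CPM in fibre1, against 2358 ± 518 CPM in fibre2B. The log2 ratios of the means were 0.11, 0.19, 0.14, 0.06 and 0.17 for complexes I to V, and the pooled SDs of the log2 sums were 0.22, 0.26, 0.29, 0.25 and 0.27. With library totals in place of TMM factors the log2 ratios were -0.10, 0.01, -0.05, -0.14 and -0.02, so that those of complexes I, III, IV and V changed sign. With TMM factors and 1 pig left out they ran from 0.04 to 0.20 for complex I, 0.10 to 0.32 for complex II, 0.04 to 0.26 for complex III, -0.01 to 0.18 for complex IV and 0.08 to 0.27 for complex V. The lowest value came without fibre1 pig 5 for complex I, without fibre2B pig 14 for complex II and without fibre2B pig 11 for the others, and the highest without fibre2B pig 10. That of complex IV was below 0 without fibre1 pig 5, fibre2B pig 11 or fibre2B pig 14.

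**Figure D3:**
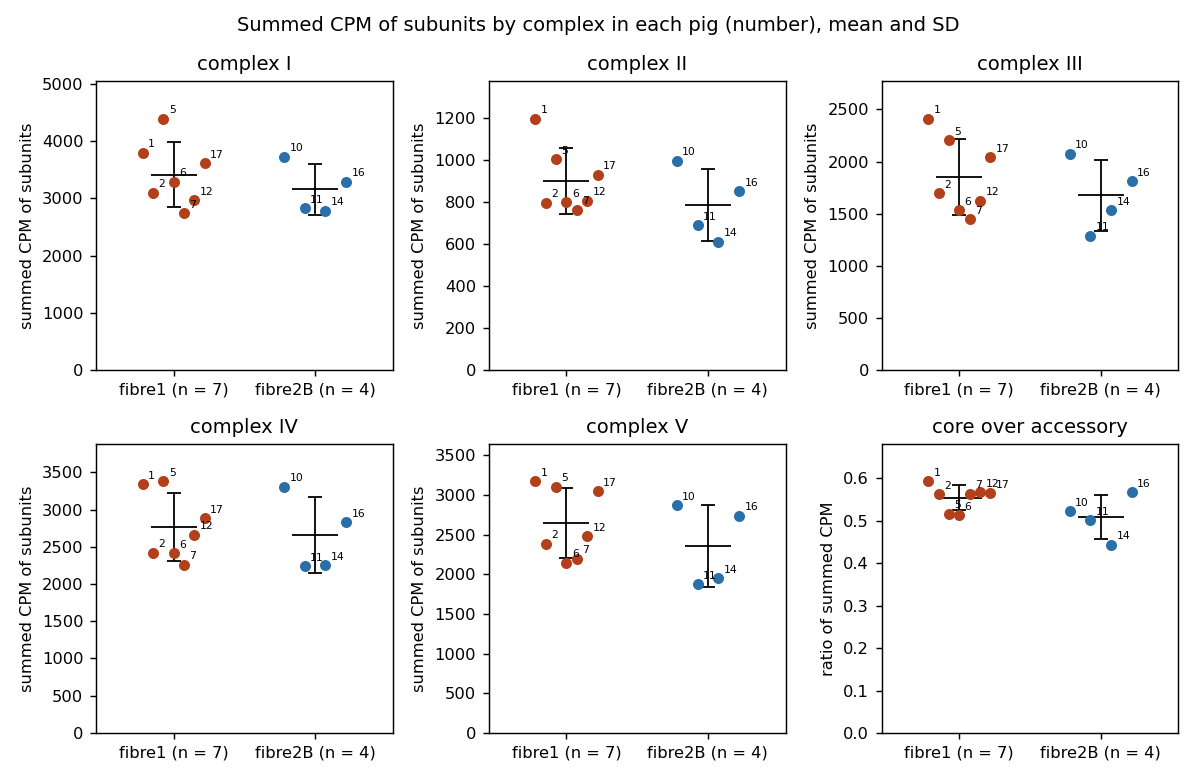
Summed CPM of the analysed subunits of each complex, and the ratio of the core to the accessory sum, in each pig. Points carry pig numbers, fibre1 left and fibre2B right, with the mean and SD. The groups overlap in every panel, with 3 of 7 fibre1 pigs above all fibre2B pigs for complex V and 2 of 7 for complexes I to IV, and with library totals 4 of the 5 differences change sign.

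Ratios between subunits of the same complex varied from pig to pig. In each complex the subunits with the most positive and the most negative log2 fold change were divided within each pig, which removes the scaling. Since each pair was picked for its difference, the ratios are given as a description without a test. Such picking favours groups that do not overlap, and the share of other gene pairs without overlap was not computed. NDUFA10 over NDUFS4 ran from 0.715 to 1.32 in fibre1 and from 0.403 to 0.633 in fibre2B, with means of 1.01 ± 0.263 in fibre1 and 0.512 ± 0.0949 in fibre2B. UQCRC1 over UQCRC2 ran from 3.96 to 7.97 in fibre1 and from 2.67 to 3.65 in fibre2B, with means of 5.61 ± 1.65 in fibre1 and 3.12 ± 0.432 in fibre2B. ATP5F1A over ATP5PO ran from 2.16 to 3.04 in fibre1 and from 1.48 to 2.08 in fibre2B, with means of 2.59 ± 0.332 in fibre1 and 1.84 ± 0.254 in fibre2B. For these pairs every fibre1 pig lay above every fibre2B pig. COX4I1 over COX7A2L was 43.5 ± 17.1 in fibre1 and 23.5 ± 5.35 in fibre2B, likewise with no overlap (29.2 to 75.4 against 16.3 to 28.0). SDHA over SDHC was 1.51 ± 0.543 in fibre1 and 0.866 ± 0.169 in fibre2B, and 5 of 7 fibre1 pigs lay above all fibre2B pigs. In all 5 ratios the highest value was that of fibre1 pig 5, a pig with a high share of counts on 10 genes; for the 4 pairs without overlap the lowest fibre1 value was that of pig 7 or 12.

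**Figure D4:**
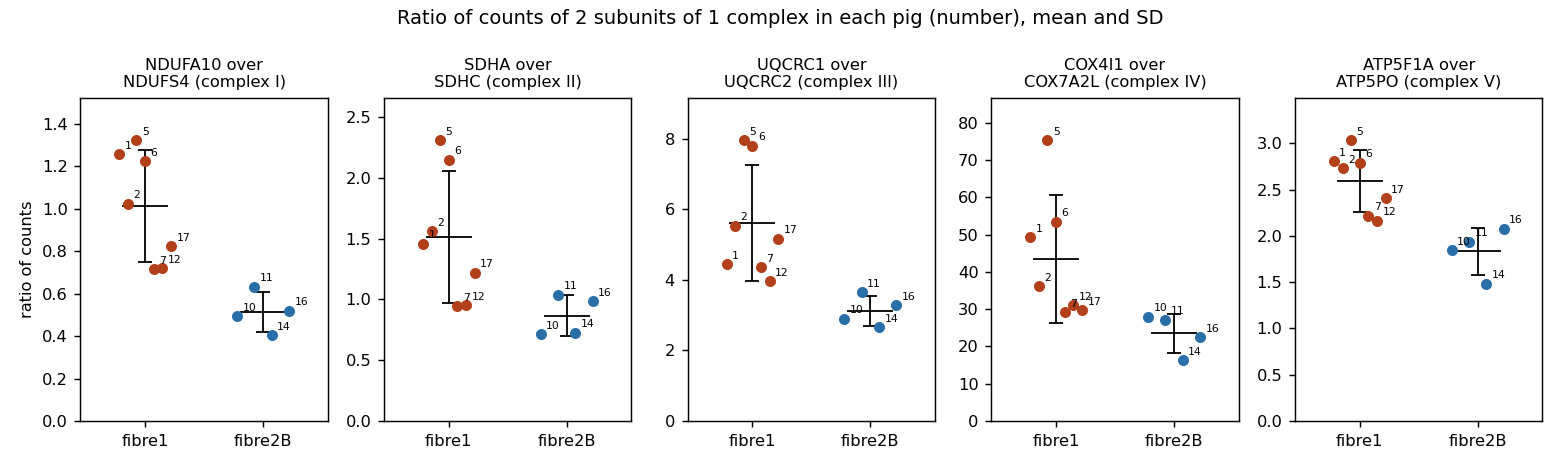
Ratio of the counts of 2 subunits of the same complex in each pig (points with pig numbers; fibre1 left, fibre2B right), with the mean and SD. The pairs were picked for their difference, which favours groups without overlap. The groups do not overlap for NDUFA10 over NDUFS4, UQCRC1 over UQCRC2, COX4I1 over COX7A2L and ATP5F1A over ATP5PO, and overlap for SDHA over SDHC.

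The median deviation of the members from their own means, on the log2 scale, ran from -0.23 to 0.31 over the fibre1 pigs and from -0.24 to 0.18 over the fibre2B pigs, while the group averages of that median were 0.02 in fibre1 and -0.04 in fibre2B. In fibre1 pigs 1, 5 and 17 the numbers of members above their own mean over the 11 pigs were 41, 42 and 44 of 51, and in fibre1 pigs 2, 6, 7 and 12 they were 10, 18, 6 and 15. In fibre2B pigs 10 and 16 they were 38 and 35, and in fibre2B pigs 11 and 14 they were 7 and 16. Both groups therefore held pigs in which most members were high and pigs in which most were low. With library totals the number was 12 in fibre1 pig 5, 29 in fibre1 pig 7 and 30 in fibre2B pig 14, while fibre1 pigs 1 and 17 and fibre2B pigs 10 and 16 had 42, 42, 38 and 43. The rank of fibre1 pig 5 thus depended on its low scaling factor.

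**Figure D5:**
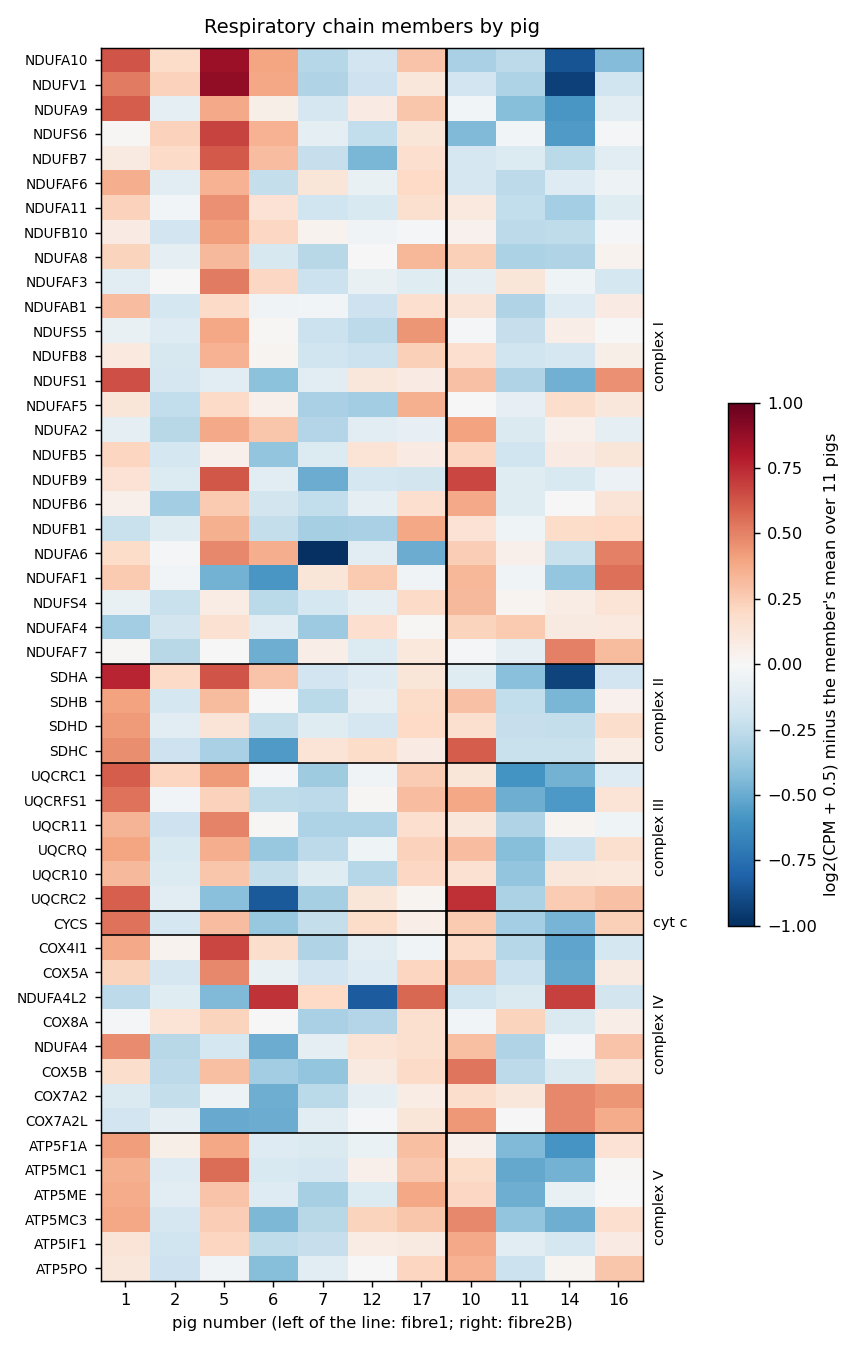
Each row is 1 of 50 members and each column a pig (fibre1 left of the line, fibre2B right); colour is log2(CPM + 0.5) with TMM factors minus the member's mean over 11 pigs. Most members are high in fibre1 pigs 1, 5 and 17 and in fibre2B pigs 10 and 16, while for COX7A2 all 7 and for COX7A2L 6 of 7 fibre1 pigs lie below the 4 fibre2B pigs.

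Members moved together from pig to pig. After the group means were removed, the median correlation of log2 CPM between 2 members over the 11 pigs was 0.538, with quartiles of 0.242 and 0.750, and 87.5% of pairs were above 0. All members of a pig share its library and scaling factor. The same correlations were not computed for other genes, so they are not shown to be particular to these members. The correlation of a member with the median of the other members was 0.783 at the median and highest for ATP5MC1 (0.970), NDUFA8 (0.962), UQCRQ (0.959) and SDHB (0.944). It was lowest for NDUFA4L2 (-0.332), COX7A2L (0.0408), NDUFAF3 (0.141), NDUFAF4 (0.200) and NDUFAF7 (0.200), so 3 of the 6 assembly factors were among the 5 members least like the rest. COX7A2 was at 0.387. Those least like the rest also had low levels, with fibre1 means of 2.64 (NDUFA4L2), 23.7 (COX7A2L), 29.7 (NDUFAF3), 7.29 (NDUFAF4) and 3.29 CPM (NDUFAF7). The members named as highest had 418, 234, 332 and 317 CPM. NDUFAF5 and NDUFAF6, at 11.1 and 11.8 CPM, had correlations of 0.596 and 0.697. The part of the level in these correlations was not tested.

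The share of a paralog within a pair does not depend on the scaling and was tested for the 2 pairs in which both genes had a row. NDUFA4L2 made up 0.389 ± 0.235% of the counts on NDUFA4 and NDUFA4L2 in fibre1 and 0.357 ± 0.168% in fibre2B, a difference of 0.0319 percentage points (two-sided exact permutation test over 330 splits, p = 0.842, adjusted over the 2 pairs 0.842). ATP5MC1 made up 57.3 ± 2.98% of the counts on ATP5MC1 and ATP5MC3 in fibre1 and 53.6 ± 2.24% in fibre2B, a difference of 3.69 points (exact permutation p = 0.070, adjusted 0.139). Another c-subunit gene, ATP5MC2, had no row and is not in this share. The smallest p this test can give is 0.00303. With 1 pig left out the difference was 2.78 to 4.59 points and the exact permutation p, not adjusted over the pairs, ran from 0.029 without fibre1 pig 12 (4.40 points) to 0.175 without fibre2B pig 10, with 10 of 11 at or above 0.058. Without fibre1 pigs 5 and 6 together it was 2.16 points (exact permutation p = 0.151).

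Other genes of the pathway were read from lists of their own. All 13 subunits encoded by mitochondrial DNA were tested; 3 had positive and 10 negative log2 fold changes, with a median of -0.25, and 0 passed with edgeR, 0 also at an unadjusted p under 0.05. They summed to 89179 ± 22941 CPM in fibre1, against 99964 ± 36997 CPM in fibre2B. COX1, the catalytic subunit of complex IV, had a log2 fold change of 0.01 ± 0.29 (edgeR adjusted p = 0.980), and ND6, a complex I subunit on the other strand from most genes, of 0.57 ± 0.45 (edgeR adjusted p = 0.414).

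Of 44 further assembly and copper-delivery factors listed for the complexes 20 were tested, and 1 passed (5%, against 9.01% of all genes tested). TTC19, which helps to clear fragments of the Rieske protein from complex III, was higher in fibre1, with 18.9 ± 4.41 CPM in fibre1, against 10.5 ± 1.58 CPM in fibre2B (log2 fold change 0.85 ± 0.20, edgeR adjusted p = 0.027). Leaving out fibre1 pig 2 (0.054) or fibre2B pig 10 (0.061), 14 (0.089) or 16 (0.070) ended the TTC19 call. The others had 10 positive and 9 negative values, among them COA4, a factor of complex IV (0.52 ± 0.17, edgeR adjusted p = 0.064), and SDHAF2, which attaches the flavin to SDHA (0.48 ± 0.15, edgeR adjusted p = 0.065). Of 10 tested coenzyme Q genes, COQ10A and COQ10B among them, 0 passed. In edgeR 4 of them (40%) had an unadjusted p under 0.05, 3 higher and 1 lower in fibre1, against 28.9% of all genes tested. COQ8A, an atypical kinase needed for coenzyme Q synthesis, had 284 ± 111 CPM in fibre1, against 167 ± 41.6 CPM in fibre2B (0.76 ± 0.28, edgeR adjusted p = 0.093). COQ10B had 13.8 ± 6.58 CPM in fibre1, against 22.5 ± 5.40 CPM in fibre2B (-0.71 ± 0.29, edgeR adjusted p = 0.126). Of 9 listed genes of mitochondrial transcription 5 were tested, TFAM and POLRMT not among them. All 5 had negative values (median -0.11), and 0 passed, 0 also at an unadjusted p under 0.05. MTERF1 was low, with means of 0.477 CPM in fibre1 and 0.671 CPM in fibre2B.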

How the data were processed

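The authors deposited 1 table of expected counts per gene (estimated read counts, not normalised, 1 column per pig). The submitters' processing notes name CASAVA 1.8.2, FastQC, STAR, RSEM, edgeR, DESeq2 and the build Sscrofa10.2, with no roles or order. Libraries were made from total RNA with a TruSeq RNA kit, per the labels' protocols, and whether counting used strand is not given in the sources used here. The values were whole, so rounding changed nothing. All 25322 rows entered the table, 6508 of them at 0 in every pig, and 11804 had a symbol in the table of gene names; the unnamed rows took 20.7% of counts. There were 0 columns of other samples. The isoform table was not used.

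Genes were tested in R 4.3.3 with edgeR 4.0.16: after TMM scaling and filterByExpr, a quasi-likelihood model with a group term was fitted to the 11329 genes kept, with Benjamini-Hochberg adjustment and a threshold of 0.05. Log2 fold changes give fibre1 minus fibre2B, and each SE was derived from the fold change and its F statistic. CPM uses TMM factors. Alternatives were RLE and upper-quartile factors, library totals, other filters, DESeq2 1.42.0, voom of limma 3.58.1 with and without quality weights, robust dispersion, a covariate for the share of the 10 most abundant nuclear genes, leaving out those and the mitochondrial genes, and leaving out pigs. The pipeline was tested on simulated data. By the labels 1 sample is 1 pig, so the replicates are animals, and precision is limited by 7 and 4 pigs.

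The members, lists and pairs were chosen with earlier results of these data known. Members named are those called, the 5 with the smallest p in each direction, the ends of each complex, core subunits and paralog pairs; other members were named after their values were seen. A gene that this rule names is not reported here. Of 5 planned paralog shares 2 could be computed from the rows analysed. The ATP5MC1 share was planned with ATP5MC2 as well, which had no row. Protein and promoter sequences were not used here.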

Additional observations from a re-analysis of the deposited data

Results flagged for a closer look

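Dixon's criterion was applied to 86 sets of values, each in fibre1 or fibre2B: members, sums, paralog shares and ratios within a complex. It compares the pig farthest from the others with the range of its group, and chance passes it in about 1 of 20 groups. Here 3 sets passed, no more than that rate, and some sets share genes. NDUFS1, a core subunit of complex I, had 193 CPM in fibre1 pig 1, where the next fibre1 pig had 133 and the lowest 92.2 CPM. NDUFA4L2 had 4.31 CPM in fibre2B pig 14, where the next fibre2B pig had 2.21 and the lowest 2.11 CPM. The summed CPM of the 6 assembly factors of complex I was 82.9 in fibre1 pig 5, where the next fibre1 pig had 68.7 and the lowest 59.2 CPM. The cause of these values was not tested.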

How the results depend on the processing

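Under every setting tried NDUFA10 stayed higher and COX7A2 and COX7A2L stayed lower in fibre1, but the number of members called ran from 0 to 5 when 1 pig was left out, and that of all genes from 0 to 1548. Of 51 members 0 were called with library totals (157 genes in all), 0 with no filter, 0 with the share of 10 genes as a covariate (460 genes), 0 without fibre1 pigs 5 and 6 (28 genes), 0 with DESeq2 without fibre2B pig 14 (lowest adjusted p 0.063, 776 genes) and 5 with DESeq2 (1740 genes). Quality weights in voom called 4 members and 1748 genes, and plain voom and upper-quartile factors 2 members each. Without fibre2B pig 14 edgeR called 0 genes, with 2436 at an unadjusted p under 0.05. With library totals 33.8% of called genes were higher in fibre1, against 48.6% with TMM factors. Small log2 fold changes reversed: NDUFS1 was 0.0055 with RLE factors and with DESeq2, 0.014 with voom, 0.14 with the covariate and 0.10 without pigs 5 and 6; ATP5MC3 was -0.10 with library totals, -0.034 with quality weights and -0.049 with DESeq2 without pig 14; NDUFA4L2 was 0.018 with quality weights and 0.30 with DESeq2 without pig 14. With library totals CYCS was -0.063, SDHB -0.059 and SDHD -0.13, and with quality weights CYCS was -0.012 and SDHD -0.011. NDUFA4 and SDHC were 0.047 and 0.052 with the covariate, and 0.015 and 0.049 without pigs 5 and 6. With 1 pig left out the ranges were -0.14 to 0.17 for NDUFS1, -0.056 to 0.27 for ATP5MC3, -0.21 to 0.30 for NDUFA4L2, -0.19 to 0.12 for SDHC and -0.022 to 0.13 for SDHD. The difference in the NDUFA4L2 share was -0.034 points without pigs 5 and 6 and -0.044 to 0.11 with 1 pig left out, and that of the ATP5MC1 share 2.16 without pigs 5 and 6 and 2.78 to 4.59 with 1 pig left out. The cause was not tested. Of the values of 26 named members under the other 13 settings, 299 kept direction and side of the threshold, 17 lost and 3 gained a call, and 19 reversed. No paired analysis was possible because no replicate number occurs in both groups.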

Other observations

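The sum of the 10 tested coenzyme Q genes was 900 ± 166 CPM in fibre1 and 693 ± 118 CPM in fibre2B. For this sum 5 of 7 fibre1 pigs lay above all fibre2B pigs. COQ9, COQ8A and COQ10A weigh most in it, with means of 290, 284 and 191 CPM in fibre1. Of the 10 genes 6 had positive and 4 negative log2 fold changes. The counts on the 51 members made up 1.18 ± 0.211% of a library in fibre1 and 1.24 ± 0.138% in fibre2B, and those on genes of mitochondrial DNA 8.72 ± 3.06% in fibre1 and 10.8 ± 3.45% in fibre2B.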
